A study of Homo sapiens with 13 samples.

Results

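CpG-rich accessible regions away from promoters were examined in the established human cell line T98G, which was derived from a glioblastoma. They made up 1007 of the 129347 peaks and of the 96278 peaks more than 2 kb from any transcription start site (TSS). A peak belonged to this class when it lay more than 2 kb from every transcript start of GENCODE release 44 on GRCh37, the assembly of hg19, and was at least 200 bp wide. Its own sequence also had a GC content of 55% or more and a CpG ratio of 0.65 or more. The CpG ratio is the number of CpG sites times the length, divided by the product of the numbers of C and of G. Position and sequence defined the class, and counts were not part of the rule. The peaks and their widths were called from these same data, and the class was chosen with earlier results known.

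Chromatin accessibility was measured by ATAC-seq, in which the Tn5 transposase places sequencing adapters in open DNA, in 3 libraries of cells in G1 and 3 of cells in M-phase. For G1, cells were deprived of serum during 72 h. For M-phase, cells were deprived of it during 48 h, released for 36 h into serum together with nocodazole, which disrupts microtubules, and were collected by shaking them off the dish. Serum release and nocodazole therefore cannot be told apart from the phase, nor can the sequencing platform, since only M-phase replicates were also run on a NextSeq. The labels do not say that replicates were separate cultures, so p-values measure the spread between these libraries, which may be technical. In bulk libraries, a site open in fewer cells and a site less open in each cell cannot be told apart.

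Most CpG dinucleotides of the human genome are methylated and have been lost over evolution, because methylated cytosine mutates easily. CpG islands are the stretches that kept them, and most of these are unmethylated promoters. Islands far from annotated promoters, often called orphan CpG islands, are known to lie at unannotated promoters, near developmental genes and inside gene bodies, and CpG-rich sequence also occurs in tandem repeats, next to telomeres and at tRNA genes. During mitosis chromosomes condense and most transcription stops.

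The central 200 bp of peaks that stood at the extremes show how different these sequences were. They are given on the plus strand of GRCh37 with every CpG in capitals, for the 3 largest rises, the 3 largest falls, the 2 smallest changes, the 2 highest levels and the highest CpG ratio. A window that overlapped an annotated untranslated region was passed over for the next in rank, so the highest member is not shown. The peak by COPZ2 also covers an untranslated region, but outside its central window.
Largest rise, chr21:48118173-48118372: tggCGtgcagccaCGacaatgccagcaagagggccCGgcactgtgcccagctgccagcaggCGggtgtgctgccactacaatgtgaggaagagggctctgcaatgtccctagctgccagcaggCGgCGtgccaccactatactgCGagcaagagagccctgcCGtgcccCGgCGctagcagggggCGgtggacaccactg
Largest rise, chr21:48119381-48119580: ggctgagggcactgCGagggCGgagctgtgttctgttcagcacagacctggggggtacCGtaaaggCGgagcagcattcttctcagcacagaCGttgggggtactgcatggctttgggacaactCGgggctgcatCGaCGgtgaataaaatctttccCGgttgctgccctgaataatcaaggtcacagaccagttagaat
Largest rise, chr16:14379818-14380017: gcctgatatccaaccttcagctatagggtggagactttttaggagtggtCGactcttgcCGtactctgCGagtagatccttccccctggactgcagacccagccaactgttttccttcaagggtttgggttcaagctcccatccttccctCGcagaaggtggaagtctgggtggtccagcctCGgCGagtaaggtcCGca
Largest fall, chr1:216774430-216774629: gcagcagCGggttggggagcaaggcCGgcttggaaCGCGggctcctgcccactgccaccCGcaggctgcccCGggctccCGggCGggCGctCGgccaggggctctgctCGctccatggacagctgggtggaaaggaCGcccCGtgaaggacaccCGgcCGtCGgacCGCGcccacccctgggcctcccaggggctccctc
Largest fall, chr19:40315163-40315362: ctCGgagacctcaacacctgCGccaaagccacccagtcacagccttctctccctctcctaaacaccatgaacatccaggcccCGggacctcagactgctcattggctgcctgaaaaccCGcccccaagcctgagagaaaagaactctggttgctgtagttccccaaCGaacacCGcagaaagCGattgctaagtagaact
Largest fall, chr7:157483266-157483465: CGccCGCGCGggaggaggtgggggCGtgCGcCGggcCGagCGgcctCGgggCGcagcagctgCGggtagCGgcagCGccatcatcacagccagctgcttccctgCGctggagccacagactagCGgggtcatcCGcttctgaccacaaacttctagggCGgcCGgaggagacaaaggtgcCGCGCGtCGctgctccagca
Smallest change, chr17:37910512-37910711: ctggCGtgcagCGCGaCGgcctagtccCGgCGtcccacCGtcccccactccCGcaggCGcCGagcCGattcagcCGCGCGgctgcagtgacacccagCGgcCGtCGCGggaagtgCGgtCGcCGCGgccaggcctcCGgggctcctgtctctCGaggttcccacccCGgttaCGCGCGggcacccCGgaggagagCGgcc
Smallest change, chr1:247289844-247290043: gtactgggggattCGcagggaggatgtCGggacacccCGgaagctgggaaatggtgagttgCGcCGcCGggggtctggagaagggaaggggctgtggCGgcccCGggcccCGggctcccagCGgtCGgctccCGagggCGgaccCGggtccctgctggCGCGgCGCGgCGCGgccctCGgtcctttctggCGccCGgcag
Highest level, chr17:47269904-47270103: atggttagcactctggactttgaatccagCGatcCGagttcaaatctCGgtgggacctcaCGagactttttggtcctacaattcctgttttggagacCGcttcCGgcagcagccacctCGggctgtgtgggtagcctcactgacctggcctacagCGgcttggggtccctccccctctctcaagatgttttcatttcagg
Highest level, chr17:46102114-46102313: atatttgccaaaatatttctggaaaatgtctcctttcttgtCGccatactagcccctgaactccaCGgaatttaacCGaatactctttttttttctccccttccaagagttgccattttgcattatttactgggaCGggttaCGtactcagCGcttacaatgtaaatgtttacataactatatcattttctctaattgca
Highest CpG ratio, chr16:57763740-57763939: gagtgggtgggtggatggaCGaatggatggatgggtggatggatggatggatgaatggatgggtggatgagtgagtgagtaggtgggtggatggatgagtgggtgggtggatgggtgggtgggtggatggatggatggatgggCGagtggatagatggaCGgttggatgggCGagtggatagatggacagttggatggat

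The windows of the 3 largest rises had 11, 9 and 7 CpG sites in 200 bp. Those of the 3 largest falls had 18, 7 and 23, so the fall near DYRK1B had as few as the rise with the fewest. The smallest changes, near GRB7 and in ZNF124, had 30 and 23. The window with the highest CpG ratio at that level, in an intron of DRC7, had 4 CpG sites in a run of near-identical short units rich in G and poor in C. Its peak reached a ratio of 1.54 with 12 CpG sites in 939 bp, because so few C were present. A high ratio thus did not always mean many CpG sites.

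The 1007 peaks had a median width of 508 bp, with a range of 200 to 2839 bp. Their median GC content was 65.8%, and their median CpG ratio was 0.769. They held a median of 41 CpG sites and lay a median of 9068 bp from the nearest TSS. GENCODE placed 497 outside genes, 341 in introns, 118 in coding exons, 34 in noncoding exons and 17 in untranslated regions. Further matches in the genome, with at least 95% identity over at least 80% of the peak, were found for 115. Matches shifted within a repeat of the same peak were not set apart, so these need not be copies elsewhere. In 224 peaks at least 20% of the 20-base words occurred more than once within the peak, and these are called tandem-repeat peaks here.

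The deposited values were read counts in peaks that the authors had scaled down to the smallest library, called scaled counts here. Before scaling, reads in peaks numbered about 4333935 to 5365024 in G1 and 12470564 to 14202790 in M-phase, as recovered from the steps of the values, so M-phase counts carry less counting error. Promoter peaks of VIM, CD44 and FN1, expressed in mesenchymal glioma cells, had mean scaled counts of 616, 181 and 330. No peak overlapped a TSS of PTPRC or CDH1, markers of blood and epithelial cells.

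As a class, CpG-rich distal peaks stood at much the same level in both phases in the deposited scaling. The median of log2(scaled count + 8) over all 1007 was 5.16, 5.35 and 5.32 in G1 replicates 1, 2 and 3 and 5.19, 5.20 and 5.22 in M-phase replicates 1, 2 and 3. The phases' libraries overlapped, with means of 5.28 ± 0.10 and 5.20 ± 0.02 (SD, n = 3 each). The class took 1.10% to 1.25% of the scaled counts of a G1 library and 1.17% to 1.19% of those of an M-phase library. The median log2 change between the phase means was -0.01, against 0.07 over all peaks. It was -0.10 with a trimmed mean of M values (TMM), -0.21 with a loess fit on GC content and -0.26 with an equal total in peaks. Changes are given throughout as M-phase over G1 on the log2(scaled count + 8) scale, which understates changes at low counts.

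The same rule applied to sequence at promoters gave a different picture. The 9731 peaks that overlapped a TSS and met the same width, GC and CpG criteria had a median change of 0.51, and their library medians were 7.29, 7.18 and 7.49 in G1 and 7.76, 7.88 and 7.93 in M-phase, with no overlap. The 51777 other distal peaks of 200 bp or more, which failed the GC or the CpG criterion, had a median change of -0.02. Among them, 10735 were GC-rich but had a CpG ratio under 0.65, and their median change was -0.01. In every library the CpG-rich distal peaks lay above the other distal peaks, by 0.61 ± 0.09 in G1 and 0.62 ± 0.02 in M-phase on the log2 scale (SD, n = 3 each). They lay below the CpG-rich promoter peaks by more in M-phase, with a difference of -2.65 ± 0.07, than in G1, with -2.04 ± 0.19.

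**Figure D1:**
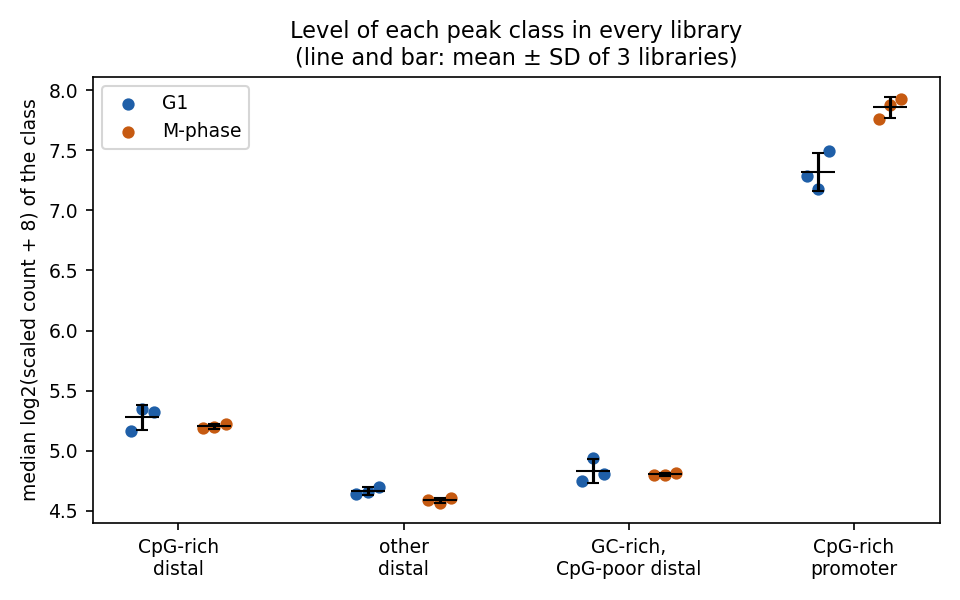
Median log2(scaled count + 8) of CpG-rich distal, other distal, GC-rich but CpG-poor distal and CpG-rich promoter peaks on the y axis, with 1 point per library and the mean ± SD of 3 libraries per phase. The G1 and M-phase libraries overlap for CpG-rich distal peaks, near 5.2, and are separate for CpG-rich promoter peaks.

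Single peaks nevertheless differed in both directions. Of the 1007, 910 passed the filter on low counts and were tested with limma, with Benjamini-Hochberg adjustment over all 73121 peaks tested. At an adjusted p under 0.05, 128 (14.1%) were higher and 67 (7.36%) were lower in M-phase. Over all peaks tested, 14.3% were higher and 13.1% were lower, so the share that rose was near the background and the share that fell was below it. Among the other distal peaks 6.36% were higher and 15.1% lower, and among CpG-rich promoter peaks 52.5% and 3.44%. In 193 members every M-phase library was above every G1 library, which is 21.2% of those tested against 19.7% of all peaks tested. In 134, or 14.7%, every M-phase library was below, against 18.6%.

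The balance of these calls depended on the scaling. With TMM, 108 peaks were higher and 114 lower, and with an equal total in peaks for every library 71 were higher and 202 lower. A loess fit on GC content gave 87 higher and 155 lower. A loess fit on abundance, by contrast, gave 109 and 70. Leaving out G1 replicate 2 or M-phase replicate 2 or 3 left 39, 42 and 41 peaks lower.

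Between the phase means, 76.7% of CpG-rich distal peaks differed by less than 1.5-fold, compared with 78.4% of all peaks and 52.0% of CpG-rich promoter peaks. Between single libraries, 76.2% to 78.5% were within 1.5-fold for pairs of G1 libraries, 82.3% to 89.8% for pairs of M-phase libraries and 61.9% to 71.0% for pairs across phases. Pearson's r of log2(scaled count + 8) over the 1007 peaks was 0.911 to 0.923 within G1, 0.951 to 0.963 within M-phase and 0.860 to 0.891 across phases. Every pair within a phase was thus closer than every pair across phases.

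**Figure D2:**
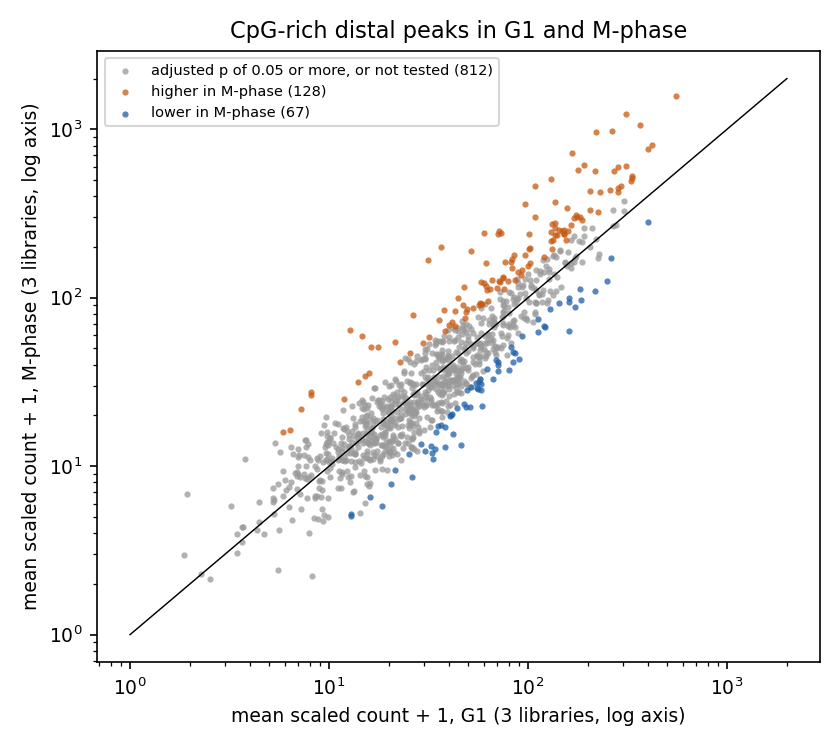
Mean scaled count + 1 of each of the 1007 peaks in G1 (x axis) and M-phase (y axis), both on log axes, with the line of equal values. The 128 peaks called higher in M-phase (orange) reach the highest counts, while the 67 called lower (blue) spread over low and middle counts.

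In the deposited scaling, the more accessible members rose more often. Among the 163 members with a mean scaled count of 100 or more over the 6 libraries, 79 (48.5%) were higher and 12 (7.36%) lower, with a median change of 0.46. Relative to the median of all peaks, the library medians of these 163 were 2.93, 2.76 and 3.10 in G1 and 3.25, 3.37 and 3.40 in M-phase, so the phases did not overlap. Between 30 and 100, 11.4% of 352 were higher and 8.81% lower. Between 10 and 30, 2.13% of the 375 tested were higher and 5.87% lower, with a median change of -0.11. Peaks with more reads are also tested with smaller errors, so the shares called in either direction are not comparable between levels.

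In the bands from 30 upward the shares for CpG-rich distal peaks lay between those for the other distal and the CpG-rich promoter peaks. With a mean of 100 or more, 31.3% of 1757 other distal peaks and 64.0% of 7487 CpG-rich promoter peaks were higher, and 19.3% and 2.48% were lower. Their median changes were 0.14 and 0.64. Between 30 and 100 the promoter peaks were called higher in 17.1% and lower in 6.76%, and the other distal peaks in 9.53% and 22.8%. These shares are descriptions, and the differences between classes were not tested. The loess fit on abundance, which removes a trend of change with level, left 39 of the 163 higher and 33 lower.

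**Figure D3:**
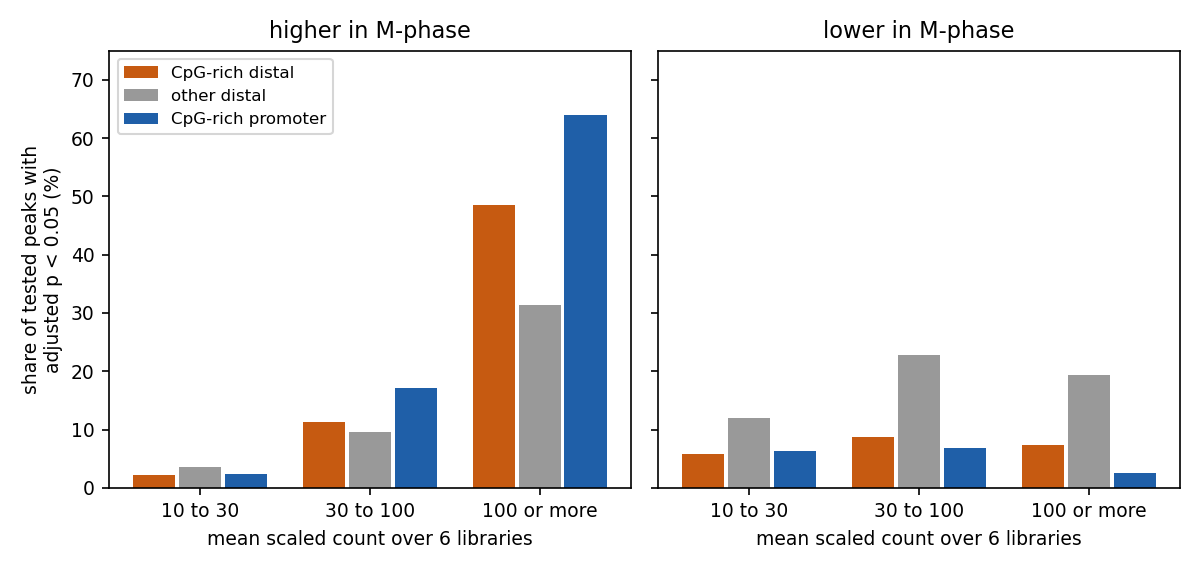
Share of tested peaks (y axis, %) called higher (left) or lower (right) in M-phase at an adjusted p under 0.05, by mean scaled count over the 6 libraries (x axis), for CpG-rich distal, other distal and CpG-rich promoter peaks. At 100 or more the shares called higher were 48.5%, 31.3% and 64.0%.

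Width went together with level. Of the 187 peaks of 1000 bp or wider, 64 were higher and 22 lower, with a median change of 0.23. Splitting them by level separated the directions. The 115 with a mean of 100 or more had a median change of 0.57, with 60 higher and 7 lower, and the 72 under 100 had a median of -0.32, with 4 higher and 15 lower. Of these 72 wide peaks of low count, 45 were tandem-repeat peaks. Across the 1007 peaks Spearman's rho with the change was 0.25 for the mean scaled count, 0.13 for width, -0.15 for the CpG ratio and -0.04 for GC content. These values describe peaks that share the same libraries, and mean count and change come from the same counts.

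The highest members lay at very different places. The highest, chr16:22201291-22202871 in a coding exon of SDR42E2, a gene of the short-chain dehydrogenase family, had scaled counts of 522, 444.5 and 694 in G1 and 1485.5, 1702 and 1514 in M-phase. Its log2 change was 1.51 ± 0.15 (SE, n = 3 each, limma adjusted p = 8.6e-14). The widest member, chr17:46100794-46103632, covers an untranslated region of COPZ2, which encodes a subunit of the COPI vesicle coat, and lies 2294 bp from its nearest TSS. It had 379, 345 and 363 in G1 and 1001, 1135 and 1053 in M-phase. Near LINC00899, chr22:46431510-46432997 had 255.5, 249 and 286 in G1 and 918, 1007 and 997 in M-phase. Near TRAPPC9, a subunit of a trafficking complex, chr8:141473989-141475351 had 417, 329 and 507 in G1 and 720, 819 and 881 in M-phase. In all 4 the lowest M-phase library was above the highest G1 library. The rise near TRAPPC9, 0.95 ± 0.16 (SE), came to 0.03 (adjusted p = 0.86) under the loess fit on abundance. The rises in SDR42E2 (1.51), at COPZ2 (1.53) and near LINC00899 (1.86) came to 0.40, 0.58 and 0.98 in that fit and were still called.

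Of the 6 largest rises, 3 lay within 100 kb of a chromosome end, and the other 3 held letters of a short element known from tRNA genes. Both largest, chr21:48117762-48118782 and chr21:48119180-48119781, are neighbors 11113 and 10114 bp from the end of the GRCh37 record of chromosome 21. All distances to chromosome ends run to the end of that record and include any unsequenced bases there. The first had 25.8, 49.2 and 31.0 in G1 and 190, 222.5 and 183 in M-phase, a log2 change of 2.29 ± 0.22 (SE, n = 3 each, limma adjusted p = 2.9e-14). The other had 23.9, 35.9 and 32 in G1 and 164, 147.5 and 185 in M-phase, with a change of 2.18 ± 0.22. These had 6 and 3 near-identical matches in the genome, counting themselves. The authors kept reads that mapped to at most 3 places. Reads from such copies may thus have been placed at another copy or dropped, and this was not measured.

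Only 11 members lay within 100 kb of a chromosome end, and 8 of them were higher and 1 lower, against 14.3% and 13.1% of all peaks tested. The median change of the 11 was 1.84. CpG-rich sequence beside the telomere repeats is known as the site where telomeric RNA starts on many chromosome ends. At the end of chromosome 10, chr10:135522906-135524735 had 86.5, 132 and 105 in G1 and 392, 493 and 485 in M-phase. At the end of chromosome 2, chr2:243152687-243154345 had 105, 145 and 138 in G1 and 477, 528 and 506 in M-phase. At the end of chromosome 1, chr1:249238407-249240608 had 170, 177 and 182 in G1 and 527, 578 and 616 in M-phase. No library of a phase reached the other phase in any of these.

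The other risers at ends were chr19:59117378-59118921 with a log2 change of 1.93, chr2:10370-10845 with 1.83 and chr5:12960-13477 with 1.32. The 3 that did not rise lay farther in: chr5:53743-54321 with 0.25, chr17:99637-100613 with -0.37 (adjusted p = 0.525 and 0.332) and chr20:62947661-62948567, which fell with -0.61 (limma adjusted p = 0.0428). That fall was no longer called when any single library was left out. The distance of 100 kb was set after these values were seen. Between 100 kb and 1 Mb from an end, 7 of the 84 tested peaks were higher and 7 lower, with a median change of -0.13. A second copy was found for 2 of the 11.

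The other 3 of the 6 largest rises held the B box core, GTTCGANNC, somewhere in the peak. The B box is an internal promoter element of tRNA genes, and the annotation used here has no nuclear tRNA genes. At chr16:14379072-14380763, which also held the A box core TGGCNNAGT, the scaled counts were 201, 198 and 261 in G1 and 924, 1024 and 924 in M-phase. At chr16:3200143-3201411 they were 181, 160 and 157 in G1 and 626, 789 and 741.5 in M-phase. At chr17:47269205-47270802, the second highest member, they were 290, 314 and 320 in G1 and 1106.5, 1335 and 1232 in M-phase. The log2 changes of these peaks were 2.09, 2.06 and 1.96, with SEs of 0.15 to 0.17. Under the loess fit on abundance they were 1.26, 1.34 and 1.01 and still called.

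Across the class, 40 members held the B box core on either strand (3.97%, against 2.93% of all peaks of 200 bp or more). The whole peak was searched, and members were wider than other distal peaks (medians of 508 and 375 bp). In the central 200 bp the shares were 0.894% of members and 0.783% of all such peaks. The core also contains a CpG, which the rule selected for. Of the 39 tested, 18 were higher and 4 lower, with a median change of 0.44. The shares over all peaks tested were 14.3% higher and 13.1% lower, and 48.5% of members with a mean of 100 or more were higher. The mean scaled count of the 40 with the core in the whole peak had a median of 85.0, against 31.0 for all members. The 5 that also held the A box core had a median change of 1.64. Of these, chr17:29876303-29877793 near MIR193A rose from 191 ± 37 to 611 ± 29 (SD, n = 3 each) and chr22:46457043-46458257 in an intron rose from 95 ± 28 to 358 ± 27. A match of the letters is not evidence that a polymerase binds there. The exception, chr6:144536755-144538067, stood at 218 ± 53 in G1 and 221 ± 14 in M-phase.

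**Figure D4:**
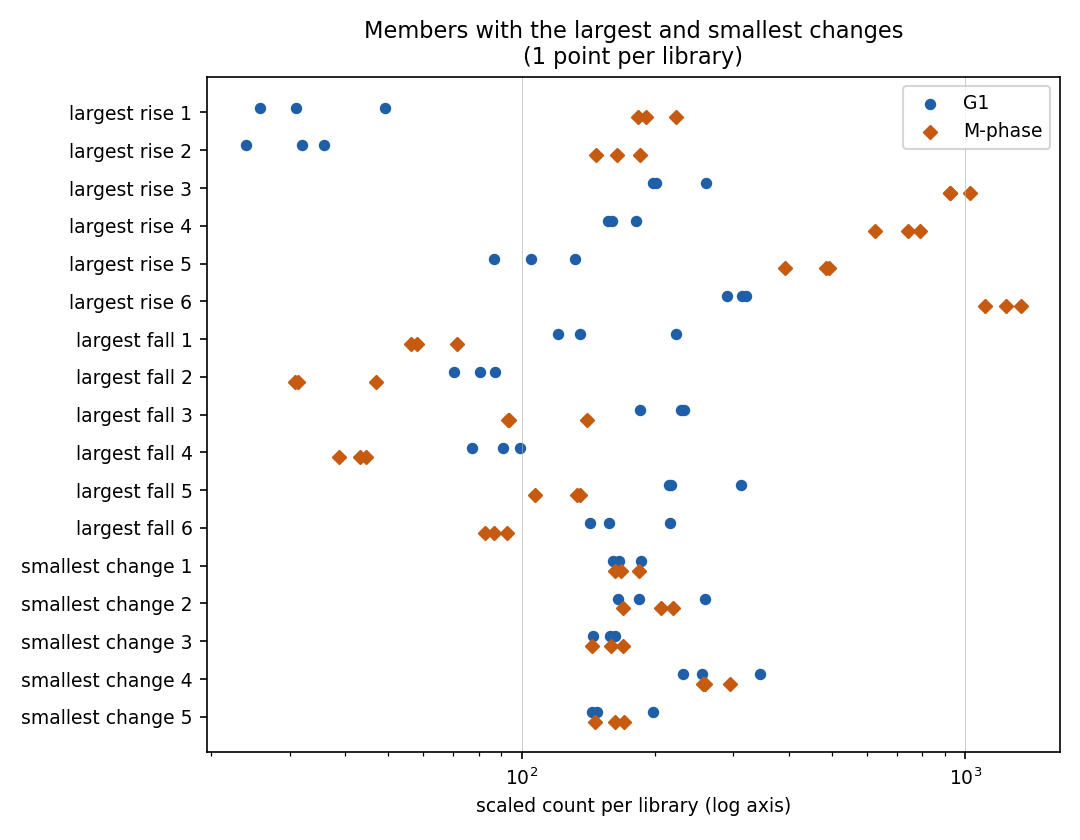
Scaled count of each library (x axis, log) for the 6 largest rises, the 6 largest falls and the 5 smallest changes (y axis, by rank), with G1 as circles and M-phase as diamonds. The phases are apart in every rise and fall, as the selection of these required, and overlap in every small change.

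The falls were smaller than the rises. Among the 326 members with a mean of 50 or more, 105 had risen and 25 had fallen. These had an adjusted p under 0.05 and no overlap of the phases. The same count was not made over all peaks, so it does not set this class apart, and the balance of calls depended on the scaling. Over all peaks tested at any level, without the criterion on overlap, 14.3% were higher and 13.1% lower. At a mean of 100 or more, 31.3% of other distal peaks were higher and 19.3% lower. For CpG-rich promoter peaks these shares were 64.0% and 2.48%. Some called falls at lower counts were larger, as near BCL11B (-1.38 at a mean of 28.7). With a mean of 50 or more, the largest fall was chr1:216774152-216774907 in an intron of ESRRG, an orphan nuclear receptor gene, 113688 bp from its nearest TSS. It had 135, 121 and 223 in G1 and 58.1, 71.7 and 56.3 in M-phase, a log2 change of -1.22 ± 0.22 (SE, n = 3 each, limma adjusted p = 4.8e-06). The third G1 library was well above the others, and the fall remained called without it.

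The next falls were of similar size. Near DYRK1B, which encodes a protein kinase, chr19:40315043-40315482 had 70.6, 80.5 and 87.0 in G1 and 31.3, 47.0 and 30.8 in M-phase, a change of -0.99 ± 0.24. Near TPD52L1, chr6:125420572-125421145 had 99.4, 77.3 and 91.0 in G1 and 38.7, 43.3 and 44.7 in M-phase, a change of -0.95 ± 0.23. The other 3 of the 6 largest falls at that level all lay in PTPRN2, which encodes a phosphatase-like protein of secretory granules. At chr7:157482876-157483855 the counts were 233, 185 and 229 in G1 and 93.9, 93.1 and 140.5 in M-phase. At chr7:157939620-157941856 they were 217, 312.5 and 215 in G1 and 107, 134 and 135 in M-phase.

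PTPRN2 held 15 members, 10 of them tandem-repeat peaks. The median change of the 15 was -0.39. Of these, 4 were lower, with log2 changes of -0.95, -0.93, -0.90 and -0.84, and the other 11 had changes between -0.63 and 0.30 and adjusted p between 0.0698 and 0.932. The gene was picked out after its values were seen. On chromosome 7 as a whole 4 of 81 tested members were higher and 8 lower, with a median change of -0.25.

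Tandem-repeat peaks went down more often than up. Of the 169 tested, 27 (16%) were lower and 2 (1.18%) higher, with a median change over all 224 of -0.22. Over all peaks tested, 13.1% were lower and 14.3% higher. The share of tandem-repeat peaks that fell was thus near the background, and the share that rose was below it. The 783 others had a median of 0.08, and 126 of the 741 tested (17.0%) were higher and 40 (5.40%) lower. Relative to the median of all peaks, the library medians of the tandem-repeat peaks were 0.40, 0.64 and 0.45 in G1 and 0.15, 0.18 and 0.32 in M-phase, again without overlap. Their own mean scaled counts were low, with a median of 17.5 against 37.2 for the others.

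More peaks fell than rose among tandem-repeat peaks under each of the scalings and fits tried, with 10 to 66 lower. Without G1 replicate 2 the count lower was 10, and without M-phase replicate 1 or 2 it was 16. The 2 that rose were chr1:249238407-249240608, at the chromosome end described above, and chr16:89258528-89259702 in a coding exon of CDH15, with 91.7 ± 18 in G1 and 144 ± 20 in M-phase (SD, n = 3 each). Within 1 Mb of a chromosome end, 6 of 51 tested tandem-repeat peaks were lower, and farther in 21 of 118 were.

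Most members with a very high CpG ratio were tandem-repeat peaks. Of the 94 members with a ratio of 1 or more, 74 were tandem-repeat peaks, and their median change was -0.32 with 12 of 59 tested lower. The 20 others with such a ratio had a median of -0.04, with 2 higher and 2 lower of 18 tested. Over the 783 peaks without tandem repeats Spearman's rho between ratio and change was -0.04, against -0.15 over all members. At the highest ratios with a mean of 50 or more, the DRC7 peak chr16:57763370-57764308 had 68.6, 66.4 and 69.0 in G1 and 40.8, 41.6 and 51.0 in M-phase (limma adjusted p = 0.0784). In CACNA1H, a calcium channel gene, chr16:1235656-1236162 had 59.7, 126 and 64.0 in G1 and 42.4, 41.6 and 38.0 in M-phase, a change of -0.83 ± 0.24 (adjusted p = 0.00539). Without G1 replicate 2, the high library, this change was -0.52 with an adjusted p of 0.16.

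In an intron of TERT, the catalytic subunit of telomerase, the third widest member chr5:1289303-1291823 was also a tandem-repeat peak and had 76.6, 109 and 70 in G1 and 68.0, 72.5 and 56.3 in M-phase (adjusted p = 0.312). The second widest, chr8:135476286-135479062 near ZFAT, had 97.4, 76.6 and 69.0 in G1 and 46.6, 41.2 and 62.1 in M-phase, with an adjusted p of 0.0354 that rose to as much as 0.202 when single libraries were left out. The third highest ratio, chr2:91670000-91670963, had 56.7, 57.8 and 66.0 in G1 and 41.2, 42.4 and 56.3 in M-phase (adjusted p = 0.336). With an equal total in peaks and with loess on GC content, this peak and those in TERT and DRC7 were called lower.

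**Figure D5:**
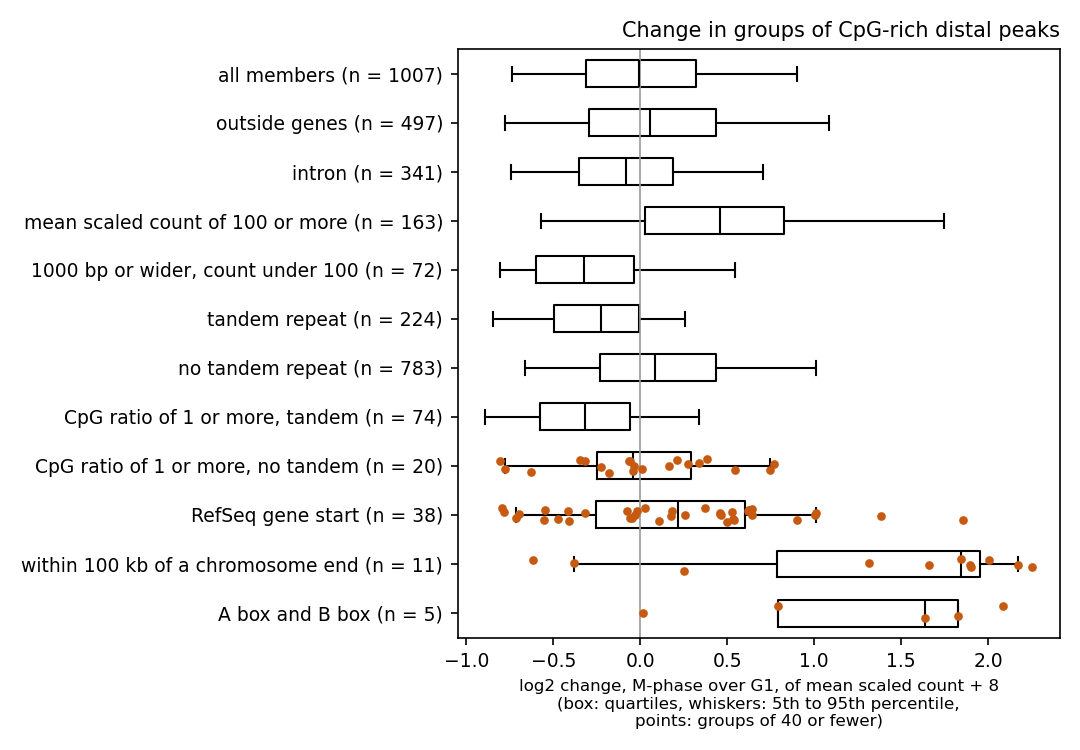
Log2 change of M-phase over G1 (x axis) in groups of CpG-rich distal peaks (y axis), with boxes for the quartiles, whiskers for the 5th to 95th percentile and single points in groups of 40 or fewer. The median was -0.22 for tandem-repeat peaks, 0.46 for peaks with a mean scaled count of 100 or more and 1.84 for the 11 within 100 kb of a chromosome end.

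The share called higher was larger outside genes than in introns, and this difference was not tested. Outside genes 80 of 459 tested members (17.4%) were higher and 33 (7.19%) lower, with a median change of 0.06. In introns 24 of 291 were higher and 24 lower, with a median of -0.08. Tandem-repeat peaks made up 142 of the 341 in introns and 73 of the 497 outside genes, and the median levels were 24.7 and 35.9. In coding exons 13 of 111 were higher and 7 lower. Members 2 to 5 kb from the nearest TSS were called higher in 17.4% and lower in 6.18%, those at 5 to 20 kb in 14.4% and 7.52%, and those at 20 to 100 kb in 9.52% and 7.41%. On chromosome 19, which is rich in genes and CpG islands, 20 of 68 tested were higher and 4 lower, with a median change of 0.31. Among all peaks tested, 14.3% were higher and 13.1% lower.

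The start of a RefSeq gene was found inside 38 members by an exact match of 60 bases, from sequences of build GRCh38.p14. GENCODE on GRCh37 places no start within 2 kb of these peaks. The match was by sequence alone, so a peak with a near-identical copy may hold the start of that copy. Such peaks include chr1:148176233-148176500 and chr15:43981720-43982478, which was called higher and matched PPIP5K1 though its nearest TSS was that of CKMT1A. The median scaled count of the 38 was 77.8, 12 were higher and 4 lower, and the median change was 0.22. All peaks tested, at any count, were higher in 14.3% and lower in 13.1%. KDM2B encodes a histone demethylase that binds unmethylated CpG. The peak with a RefSeq start of KDM2B, chr12:121904314-121905886, lay 2470 bp from a GENCODE TSS of the same gene. It had 197, 154 and 204 in G1 and 280, 309 and 280 in M-phase (change 0.64 ± 0.18, limma adjusted p = 0.00454). At a RefSeq start of CRYBG1, 27899 bp from a GENCODE TSS of that gene, chr6:106959462-106961110 had 171, 98.4 and 125 in G1. In M-phase it had 267, 246 and 302, a change of 1.03 ± 0.19. A RefSeq start of PDGFRA, a growth factor receptor often active in glioma, lay in chr4:55099118-55100571, 2629 bp from a GENCODE TSS of that gene. This peak had 118, 85.9 and 91.0 in G1 and 127, 117 and 170 in M-phase (adjusted p = 0.0967).

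An uncharacterized RefSeq start lay in chr1:23880969-23882183, whose nearest GENCODE TSS is that of ID3, an inhibitor of helix-loop-helix factors. That peak had 137, 126 and 146 in G1 and 294.5, 390 and 419 in M-phase, a change of 1.37 ± 0.18 (limma adjusted p = 3.6e-09). Without the 38 peaks the median change of the class was -0.01, as with them.

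Genes next to members were grouped by the first letters of the symbol of the nearest TSS, which takes in antisense and divergent transcripts and misses some family members. Symbols with one of the listed homeobox prefixes accounted for 14, all tested, of which 1 was higher and 1 lower. Among them PAXIP1-AS2 shares only a prefix. DLX2, a factor of forebrain neurons, lay 3606 bp from chr2:172963498-172964022, which had 65.6, 78.9 and 64.0 in G1 and 207, 242 and 261 in M-phase (change 1.66 ± 0.20, limma adjusted p = 1.3e-10). HOXD13, a factor of limb patterning, lay 4201 bp from chr2:176952964-176953248, which had 63.6, 63.3 and 47.0 in G1 and 22.7, 16.5 and 26.0 in M-phase (change -1.15 ± 0.26, adjusted p = 0.000272). The other 12 had adjusted p from 0.0689 to 0.967, among them the peaks by HOXB8, HOXC8, EN1 and POU3F2. Outside the prefixes, and picked after its values were seen, chr2:237086505-237086957 lay 9476 bp from the homeobox gene GBX2 and had 22.9, 8.6 and 11 in G1 and 30.9, 42.4 and 26.9 in M-phase (change 0.94 ± 0.29, limma adjusted p = 0.00862). Another member by GBX2, chr2:237088235-237088458, had an adjusted p of 0.735.

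Other developmental factor names gave 13 members, of which 10 were tested and 2 rose. SOX9, a factor of glia and cartilage, lay 3117 bp from a peak with 17.9, 10.9 and 12 in G1 and 51.5, 62.2 and 61.6 in M-phase (change 1.63 ± 0.27, limma adjusted p = 8.2e-07). The peak by TBX3, a T-box repressor, had 46.7, 36.7 and 55 in G1 and 110, 88.6 and 71.7 in M-phase (change 0.85 ± 0.23). The peak by SOX4 was high in both phases, at 144 ± 20 and 189 ± 26 (SD, n = 3 each, adjusted p = 0.16).

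Names of signaling ligands gave 4 members, of which 1 is a receptor pseudogene that shares the prefix. The peak by WNT7A fell from 112 ± 38 to 61.5 ± 14 (limma adjusted p = 0.00728), and those by FGF18 and FGF13 had adjusted p of 0.963 and 0.984. Zinc finger names gave 9 members, of which those by ZNF839, ZNF213-AS1 and ZNF287 rose, by 1.15, 1.05 and 1.12. Protocadherins gave 2 members, with the peak by PCDH8 tested (adjusted p = 0.256), and names of ribosomal RNA, all of the 5S kind, gave 6, of which 3 were tested and 1 was lower. That one, chrX:150250733-150251123, lay 55855 bp from its nearest 5S name and had 32.8, 24.2 and 55 in G1 and 14.0, 12.8 and 9.1 in M-phase (change -1.13, limma adjusted p = 0.00124), and the others had adjusted p of 0.216 and 0.0711.

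Short factor motifs were searched on both strands in the central 200 bp. The SP and KLF site GGGGCGGGG was present in 8.74% of members, 0.489% of other distal peaks, 15.9% of CpG-rich promoter peaks and 3.06% of all peaks of 200 bp or more. Of the 85 tested members with it, 28 (32.9%) were higher and 5 lower, with a median change of 0.25 and a median level of 75.5. For all peaks tested the shares were 14.3% and 13.1%, and 48.5% of members with a mean of 100 or more were higher. The E-box CACGTG was present in 6.06%, against 3.24% of all such peaks, with 7 higher and 2 lower of 55 tested. The NRF1 core CGCATGCG was in 1.29% against 0.288%, and 1 of these 13 was lower, with a median change of -0.06. All 3 motifs contain CpG, which the rule selected for.

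The AP1 and FOX sites, which contain no CpG, were rarer than in all peaks. The AP1 site TGANTCA was in 2.78% of members against 12.5% of all peaks of 200 bp or more, and 7 of the 26 tested were higher and 1 lower, with a median change of 0.28. The FOX site TGTTTAC was in 0.397% against 3.01%. The CTCF consensus was in 1.79% against 0.656%, and 6 of these 18 were higher and 1 lower. The CREB site TGACGTCA was in 6 members, of which 3 were higher. These groups are small, and of all peaks tested 14.3% were higher and 13.1% lower. The ETS, YY1 and ZBTB33 cores CCGGAAGT, AAGATGGCG and CTCGCGAG were in 6, 2 and 5 members, the A box and B box cores in 13 and 9, and TTAGGGTTA, part of the telomere repeat, in 1.

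Strong peaks with almost no change in the deposited scaling were also present. Near GRB7, an adaptor of receptor kinases, chr17:37910047-37911175 had 161, 166 and 186 in G1 and 162, 167 and 184 in M-phase, a change of 0.00 ± 0.19 (SE). In FGF18, chr5:170877456-170878581 had 162, 159 and 145 in G1 and 169, 159 and 144 in M-phase. In an intron of ZNF124, chr1:247289547-247290339, which holds a RefSeq start of that gene and has a second copy, had 165, 184 and 259 in G1 and 170, 206 and 219 in M-phase. In BICDL1, which encodes a dynein adaptor, chr12:120524642-120525388 had 148, 144 and 198 in G1 and 147, 171 and 163 in M-phase. In a noncoding gene whose nearest protein-coding neighbor is LSAMP, a neural adhesion gene, chr3:115502825-115503785 had 254.5, 231 and 344 in G1 and 259, 256 and 295 in M-phase. Their SEs were 0.18 to 0.19, and their adjusted p from limma were 0.96 to 0.991. Under the loess fit on abundance all but the FGF18 peak were called lower, with -0.42 near GRB7, -0.50 in ZNF124, -0.42 in BICDL1 and -0.64 near LSAMP. The LSAMP peak was also called lower with an equal total in peaks (-0.36).

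The thresholds of the rule did not mark a step in the change. Members with a GC content under 57.5% had a median change of -0.04 (n = 105), and peaks that missed the GC criterion by at most 2.5 percentage points had 0.03 (n = 102). For the CpG ratio the values were 0.06 just inside (n = 222) and 0.01 just outside (n = 252), for distance -0.05 (n = 50) and 0.04 (n = 85), and for width 0.03 (n = 60) and 0.03 (n = 94).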

How the data were processed

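For 6 ATAC-seq libraries, 3 per phase, values in peaks were analysed; chromatin fraction and input samples were not analysed here. The study's methods state that the authors trimmed adapters (cutadapt), mapped to hg19 (Rbowtie) reads with at most 3 placements, dropped mitochondrial reads (SAMtools) and used MACS2 in broad mode on pooled replicates of a phase. Tool versions and a Tn5 shift are not given in the sources used here. The deposited signal values are counts of reads per peak, multiplied by the authors by a factor per library to match the smallest library and kept to 0.1. The authors' log2 and SD columns were not used. M-phase replicates had a HiSeq and a NextSeq run each, and the column names do not say which run, or both, a value holds.

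Peaks were required to reach 10, after allowing for library size, in at least 3 libraries, with a total of at least 15, and were tested with limma 3.58.1 (R 4.3.3) with a mean-variance trend on log2(scaled count + 8), without covariates. The script was tested on simulated data. Medians over all members use log2((mean M-phase + 8)/(mean G1 + 8)). Values above 0 were whole multiples of a step per library, to within 0.05, for 99.9% to 100% of values, which gave reads for an edgeR 4.0.16 quasi-likelihood fit as an alternative. Sequences were read from GRCh37 (none is printed from chromosome 8), copies were searched with blastn 2.17.0, and RefSeq starts came from GRCh38.p14. Other steps used Python 3.11.15, pysam 0.24.0, numpy 2.4.6, pandas 2.3.3 and matplotlib 3.10.9.

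Named members were those with the 6 largest rises and 6 largest falls (adjusted p under 0.05, mean scaled count of at least 50, no overlap of phases), the 5 highest, the 5 smallest changes with a mean of at least 100, the 3 widest and the 3 highest CpG ratios with a mean of at least 50; genes by nearest-TSS lists are named where called, and chromosome ends, box elements, RefSeq starts, PTPRN2 and tandem repeats were described after their values were seen. Members and lists were chosen with earlier results of these data known. A further marker of the cell type check is not reported here.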

Additional observations from a re-analysis of the deposited data

How the results depend on the processing

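Alternatives changed the normalization, pseudocount, filter, libraries, test and membership. The counts of members called were 128 higher and 67 lower. With TMM, an equal total in peaks and a loess fit on GC content, 114, 202 and 155 were lower, and with an equal total 71 were higher. Leaving out single libraries gave 92 to 139 higher and 39 to 68 lower, the fewest lower without G1 replicate 2 (39) and M-phase replicates 3 (41) and 2 (42). edgeR on recovered reads called 121 and 69. Of members with a mean of 100 or more, 79 were higher, against 51 with an equal total and 39 with a loess fit on abundance, and 60 to 85 when single libraries were left out. Tandem-repeat members lower numbered 27, against 44, 66 and 56 with TMM, an equal total and loess on GC content, and 10 to 34 without single libraries. The 8 of 11 higher near chromosome ends ranged from 7 to 8. The median change of members, -0.01, was -0.10 with TMM, -0.26 with an equal total, -0.21 with loess on GC content and 0.083 without tandem-repeat members. Its difference from other distal peaks, 0.01, was -0.23 with loess on GC content, 0.087 in peaks of 400 bp or wider and 0.10 without tandem-repeat members. The cause was not tested.

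Among the smallest changes, the sign turned for the GRB7 peak with TMM (-0.13), an equal total (-0.33), loess on abundance (-0.42) and loess on GC content (-0.24), and ranged from -0.048 to 0.064 without single libraries. For the FGF18 peak the values were -0.12, -0.32, -0.37 and -0.25, and -0.034 to 0.076. Without single libraries the peaks in ZNF124, BICDL1 and near LSAMP ranged from -0.14 to 0.17, from -0.10 to 0.12 and from -0.13 to 0.15, while over all settings their lowest values were -0.50, -0.42 and -0.64, each called with loess on abundance. The 12 named rises and falls stayed called in their direction in every setting.

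Replicate numbers gave no sign of pairing, with correlations of same-numbered deviations of 0.01, -0.01 and 0.03, and the fit with the replicate number as a block called 139 members higher and 74 lower. Tandem repeats, chromosome ends and RefSeq starts as membership criteria, and the groups by level, tandem repeat and chromosome end, were added after the data were seen. Leaving out soft-masked repeats was not run, since the genome sequence used is not soft-masked. Depth limits low members most: 910 of 1007 were tested, and G1 libraries hold fewer reads than M-phase libraries.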
